A study of Mus musculus with 6 samples.

Results

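The genes described here encode 8 components of Nodal and Activin signaling: the ligand Nodal, the Activin subunits Inhba and Inhbb, the co-receptor Tdgf1, the receptors Acvr1b and Acvr2b, and the inhibitors Lefty1 and Lefty2. They are a set of named genes, and no threshold on their values defined it, but it was chosen with earlier results of these data known. All 8 are among the 50686 gene identifiers counted in this series and all 8 passed the filter on low counts that left 16729 genes for testing. RNA was sequenced from 3 cultures treated with intermittent compressive force (ICF) and from 3 unloaded control cultures. In both groups the cells were mouse induced pluripotent stem cells (iPSCs) reprogrammed from gingival fibroblasts, which had been grown on SNL feeder cells, formed into embryoid bodies, exposed to all-trans retinoic acid and attached to gelatin-coated plates. ICF was a force of 1.5 g per square centimetre, repeated at 0.23 Hz for 24 h in serum-free medium, and the control stood in the same medium without load. The labels number the samples of each group as donors 1 to 3, called replicates here, and the sources used here give neither the strain and age of the mice nor the number of iPSC clones.

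Nodal is a secreted ligand of the transforming growth factor β (TGF-β) family that patterns the early mouse embryo and acts in pluripotent cells. Nodal and the Activins, which are dimers of inhibin β subunits, bind activin receptors on the cell surface, and the receptors phosphorylate Smad2 and Smad3, which enter the nucleus with Smad4. Nodal needs a co-receptor such as Cripto, the product of Tdgf1, whereas Activins do not. Lefty1 and Lefty2 are diverged members of the same family that block Nodal and its co-receptor, and in the embryo they are induced by Nodal signaling itself.

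Nodal mRNA was higher and Tdgf1, Lefty1 and Lefty2 mRNAs were lower in the ICF-treated cultures. Nodal rose by 29.4%, whereas Tdgf1 fell by 43.0%, Lefty1 by 35.6% and Lefty2 by 30.8% in mean level (n = 3 per group). The receptors Acvr1b and Acvr2b and the Activin subunits Inhba and Inhbb did not pass the threshold, which was an adjusted p of 0.05 in edgeR's quasi-likelihood test with Benjamini-Hochberg adjustment over all genes tested. Thus 4 of the 8 genes were called, 1 higher and 3 lower, where 7.85% of all tested genes were called in either direction, 3.47% as higher and 4.38% as lower. Because the 8 genes were chosen with earlier results known, the contrast of these shares is not a test of the set. For the same 4 genes the ICF and control samples did not overlap, which was true of 31.4% of all tested genes (15.6% above and 15.7% below the control). DESeq2 called the same 4 genes, and 12.3% of all genes (5.64% higher and 6.63% lower). So did the edgeR test without replicate 3 of both groups, which called 30.1% of all genes (14.6% higher and 15.6% lower). In bulk RNA, fewer cells of a type and less RNA per cell cannot be told apart.

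**Figure D1:**
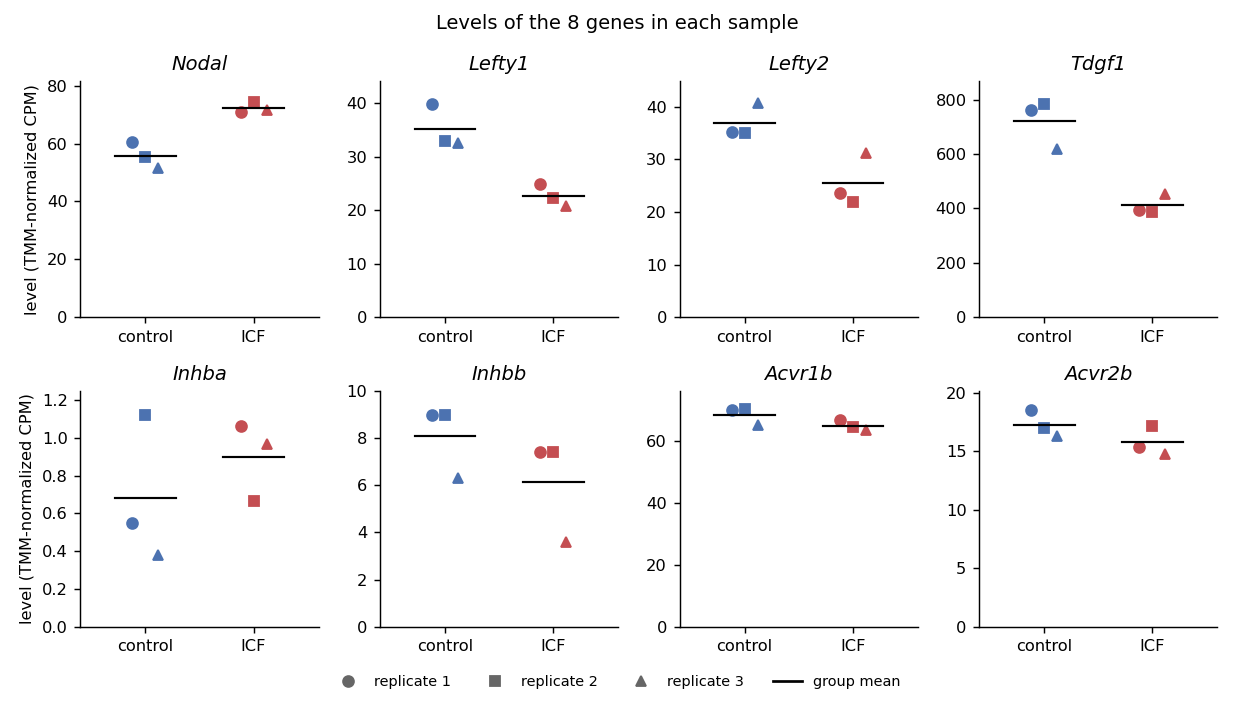
Levels of the 8 genes in each sample, in CPM, the counts scaled to library size after TMM normalization (vertical axes from 0), for 3 control and 3 ICF samples. Marker shapes give the replicate number and lines the group means. The ICF samples of Nodal, between 70.8 and 74.4 CPM, lie above all control samples, and those of Tdgf1, Lefty1 and Lefty2 lie below them.

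Between 28711166 and 34194413 reads per sample were assigned to genes, and 38.1% to 40.3% of the reads in the files were not, mostly because they aligned to more than 1 place. ICF replicate 3 stood apart: 89.0% of its nonzero counts could be divided by 4, a share of 20.3% to 21.5% elsewhere, and 20802 genes had a count, against 24340 to 24889. Its total of 28869790 reads on genes may therefore overstate its number of independent reads, which was not tested. Replicate 3 of both groups also had more reads outside genes (6.04% and 6.24%, against 4.09% to 4.52% in the other samples). The labels name donors, whereas the study's methods describe 3 independent experiments, and whether the donors were separate animals or iPSC lines is not given in the sources used here. The p-values measure the spread between these samples, which may in part be technical.

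The 8 genes differed widely in level when the CPM were divided by the length of the annotated exons (CPM per kilobase). In the control, Tdgf1 stood at 275 ± 33.9 CPM per kilobase (SD, n = 3), which was 10.3 times the level of the next gene, Nodal, at 26.7 ± 2.21. Lefty1 (20 ± 2.37), Acvr1b (15.5 ± 0.641), Lefty2 (14.1 ± 1.22), Acvr2b (4.40 ± 0.290), Inhbb (1.90 ± 0.367) and Inhba (0.107 ± 0.0603) followed in this order of level per kilobase. The only neighbours in the control whose samples overlapped were Acvr1b and Lefty2. With ICF the order was Tdgf1 (157 ± 13.9), Nodal (34.5 ± 0.922), Acvr1b (14.7 ± 0.399), Lefty1 (12.9 ± 1.14), Lefty2 (9.79 ± 1.89), Acvr2b (4.03 ± 0.325), Inhbb (1.44 ± 0.519) and Inhba (0.141 ± 0.0325 CPM per kilobase). Lefty1, which was above the receptor gene Acvr1b in every control sample, was below it in every ICF sample. The gap with ICF was small: Lefty1 reached 14.1 and Acvr1b was at least 14.4 CPM per kilobase. Of the 75-base stretches of Lefty1, 11.2% are shared with Lefty2. The levels are not corrected for reads lost there, so the order of Lefty1 and Acvr1b with ICF is uncertain. The lead of Tdgf1 over Nodal narrowed to 4.54 times, and Lefty1 and Lefty2 overlapped.

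**Figure D2:**
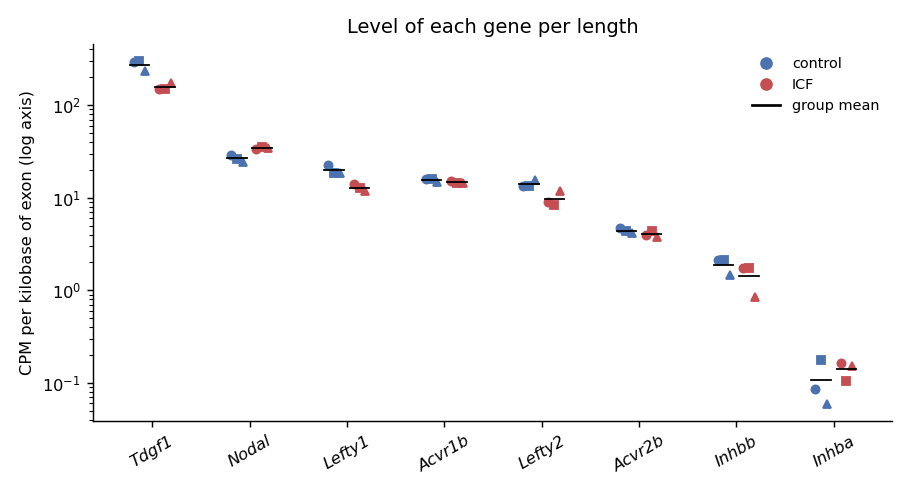
Level of each gene in CPM per kilobase of annotated exon (log axis), ordered by the control mean, with 3 samples per group (marker shapes give the replicate) and the group mean as a line. Tdgf1 stands above the other 7 genes in both groups, and Inhba, at 0.107 and 0.141 CPM per kilobase, stands below them.

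Nodal, the ligand, has 3 exons on the forward strand of chromosome 10 (ENSMUSG00000037171, 61417972 to 61425338, GRCm38), and its exons overlap no other annotated gene. Its level was 60.7, 55.4 and 51.4 CPM in control replicates 1, 2 and 3. The ICF replicates stood at 70.8, 74.4 and 71.6 CPM. Every ICF sample was above every control sample, and the ICF samples lay closer together. The means were 55.8 ± 4.64 and 72.3 ± 1.93 CPM (SD, n = 3). The log2 fold change stood at 0.37 (standard error, SE, 0.07 from the spread between samples, adjusted p = 0.02, edgeR's quasi-likelihood test). The exact two-sided permutation test gave p = 0.1, and no smaller p can be reached with 3 samples a group. The call was lost without control replicate 2 (adjusted p = 0.11, edgeR), ICF replicate 1 (0.07) or ICF replicate 2 (0.069), although the log2 fold change then lay between 0.36 and 0.39. Those tests called only 300, 471 and 581 of all genes, in that order, against 1313 in the full test.

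The promoter of Nodal is shown because the transcript rose while those of its co-receptor and inhibitors fell. The sequence, from RefSeq on GRCm38.p6, covers the 250 bases before the annotated start on the forward strand, at chr10:61417722-61417971.
Nodal promoter: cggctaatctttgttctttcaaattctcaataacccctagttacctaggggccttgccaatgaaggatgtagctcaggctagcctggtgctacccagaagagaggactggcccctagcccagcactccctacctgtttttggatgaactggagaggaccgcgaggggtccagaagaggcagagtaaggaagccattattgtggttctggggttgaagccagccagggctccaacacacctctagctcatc
Searched on both strands for 4 motifs, these bases held none of them, so that no letter is in capitals. The motifs were AATNNACA, the core bound by FoxH1, the DNA-binding partner of Smad2; CAGAC, the Smad box; and ACGTG and GCGTG, the cores bound by hypoxia-inducible factors and other helix-loop-helix proteins. AATNNACA occurred in 10.9%, CAGAC in 42.2%, ACGTG in 16.6% and GCGTG in 28.2% of 32851 promoters of the same length. The absence of a match says only that these letters are not in this window.

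The Activin subunit genes were expressed at lower levels per kilobase than Nodal. Inhba (ENSMUSG00000041324), which encodes the βA subunit and lies on chromosome 13 (16011851 to 16031621, forward strand), was counted with only 11 to 37 reads per sample. Control replicates 1 to 3 were at 0.547, 1.12 and 0.382 CPM and the ICF replicates at 1.06, 0.665 and 0.966 CPM. The groups overlapped, at log2 fold change 0.38 (SE 0.46, adjusted p = 0.6, edgeR's quasi-likelihood test). The log2 fold change ranged from 0.10 without control replicate 3 to 0.94 without control replicate 2, and it was 0.05 without replicate 3 of both groups. At this depth a change of the size seen in Nodal was not detectable in Inhba.

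Inhbb (ENSMUSG00000037035), which encodes the βB subunit and lies on chromosome 1 (119415465 to 119422248, reverse strand), was measured at 8.99, 9 and 6.29 CPM in the control and at 7.42, 7.41 and 3.59 CPM with ICF. Replicate 3 was the lowest in both groups, and the groups overlapped because control replicate 3 was below ICF replicates 1 and 2. Each ICF sample was lower than the control sample of the same number, by differences of -0.27, -0.28 and -0.80 on the log2 scale. Without regard to the replicate number, the log2 fold change stood at -0.39 (SE 0.38, adjusted p = 0.4, edgeR). With the replicate number as a block it was -0.42 (adjusted p = 0.0093), and Inhbb joined the genes called lower, so that 5 of the 8 genes were called in a test that called 29.9% of all genes (14.6% higher and 15.3% lower). Without ICF replicate 3 the log2 fold change of Inhbb was -0.12 (adjusted p = 0.69), in the test without the block, and without replicate 3 of both groups it was -0.28 (adjusted p = 0.055).

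Tdgf1 encodes Cripto, a membrane-anchored protein that Nodal binds together with its receptors, and it is a common marker of undifferentiated embryonic stem cells. It has 6 exons on the reverse strand of chromosome 9 (ENSMUSG00000032494, 110939603 to 110946158, GRCm38). Control replicates 1 to 3 were at 760, 784 and 619 CPM and the ICF replicates at 393, 387 and 453 CPM. The ICF samples were all below the control samples, and replicate 3 was nearest to the other group on both sides. The means were 721 ± 88.9 and 411 ± 36.4 CPM (SD, n = 3), which is log2 fold change -0.81 (SE 0.13, adjusted p = 0.0028, edgeR's quasi-likelihood test). The differences between samples of the same number were -0.95, -1.02 and -0.45 on the log2 scale. Without replicate 3 of both groups, in a test that called 30.1% of all genes, the log2 fold change was -0.99 (adjusted p = 3.7e-12, edgeR). The distance between replicates 1 and 2, as a median chi-square per gene, was 0.966 in the control and 1.04 with ICF. Pairs with control replicate 3 stood at 2.68 and 3.18, and those with ICF replicate 3 at 4.06 and 4.91. This distance uses raw counts, and 89.0% of the nonzero counts of ICF replicate 3 could be divided by 4. How far that raised its distances was not tested. The p-value without replicate 3 therefore rests on the narrow spread between replicates 1 and 2. The call held in each of the 6 tests that left out 1 sample, with log2 fold changes from -0.91 to -0.75.

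Processed copies of Tdgf1 lie elsewhere in the genome. Its longest transcript can give 1858 reads of 75 bases, and 161 of them (8.67%) also occur in the transcript of Tdgf1-ps1, a pseudogene on chromosome 16. That copy was counted with 13, 19 and 5 reads in the control and 4, 3 and 2 with ICF, against 12802 to 24563 reads for Tdgf1. HTSeq, the authors' counting tool, discards reads that align to both places by default, which would understate the level of Tdgf1 slightly.

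The promoter of Tdgf1 is shown because this gene had the largest fall of the 8. The sequence, from RefSeq on GRCm38.p6, lies on the reverse strand at chr9:110946159-110946408, runs 5′ to 3′ up to the base before the start, and has the matches to the 4 motifs in capitals.
Tdgf1 promoter: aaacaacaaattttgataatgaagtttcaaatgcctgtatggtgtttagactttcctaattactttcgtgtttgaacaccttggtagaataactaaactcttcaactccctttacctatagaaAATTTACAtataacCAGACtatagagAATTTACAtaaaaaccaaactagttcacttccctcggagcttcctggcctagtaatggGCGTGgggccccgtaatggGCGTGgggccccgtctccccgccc
AATNNACA was found at 2 places, from -127 to -120 and from -101 to -94 relative to the start. CAGAC lay between them from -113 to -109, and GCGTG was found from -43 to -39 and from -24 to -20. All 5 matches were on the strand shown, and none overlapped another. Of the 6 genes with a promoter in the RefSeq table used here, Tdgf1 alone had a match to AATNNACA, whereas the other motifs also occurred in genes that were not called: GCGTG in Inhba, Acvr1b and Acvr2b, ACGTG in Acvr1b and CAGAC in Acvr2b. The entries of Lefty1 and Lefty2 are missing from that table. A match of letters is not evidence of binding.

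The receptor genes did not pass the test. Acvr1b (ENSMUSG00000000532, chromosome 15, 101174067 to 101213684, forward strand) encodes a type I receptor of Nodal and Activin. It was measured at 70.0, 70.3 and 65.3 CPM in the control and 66.9, 64.6 and 63.5 CPM with ICF. Its groups overlapped, at log2 fold change -0.08 (SE 0.04, adjusted p = 0.48, edgeR's quasi-likelihood test). Acvr2b (ENSMUSG00000061393, chromosome 9, 119402118 to 119434995, forward strand) encodes a type II receptor. It was measured at 18.5, 17.0 and 16.3 CPM in the control and 15.4, 17.2 and 14.8 CPM with ICF. The groups overlapped here as well, and the log2 fold change stood at -0.13 (SE 0.09, adjusted p = 0.46). The Acvr1b to Acvr2b count ratio was 3.97 ± 0.181 in the control and 4.13 ± 0.329 with ICF (SD, n = 3; exact two-sided permutation test, p = 0.6).

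The inhibitor genes Lefty1 and Lefty2 lie beside each other on the forward strand of chromosome 1, Lefty2 (ENSMUSG00000066652) from 180893108 to 180899103 and Lefty1 (ENSMUSG00000038793) from 180935022 to 180938400 (GRCm38). Lefty1 was measured at 39.9, 32.9 and 32.5 CPM in control replicates 1 to 3 and at 24.8, 22.2 and 20.8 CPM with ICF. Every ICF sample was below every control sample, and the 3 differences between samples of the same number were alike, at -0.69, -0.57 and -0.64 on the log2 scale. The means were 35.1 ± 4.16 and 22.6 ± 2.00 CPM (SD, n = 3), which is log2 fold change -0.63 (SE 0.12, adjusted p = 0.01, edgeR's quasi-likelihood test). All 6 tests that left out 1 sample also called Lefty1.

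Lefty2 was measured at 35.2, 34.9 and 40.6 CPM in the control and at 23.6, 21.9 and 31.2 CPM with ICF. The groups did not overlap, but here replicate 3 was the highest in both. The means were 36.9 ± 3.18 and 25.6 ± 4.93 CPM (SD, n = 3), which is log2 fold change -0.53 (SE 0.17, adjusted p = 0.045, edgeR's quasi-likelihood test). Without ICF replicate 3 the log2 fold change was -0.69 (adjusted p = 0.0039). Without any of the other 5 samples the call was lost, with adjusted p-values of 0.12, 0.13 and 0.077 without control replicates 1, 2 and 3, and of 0.15 and 0.12 without ICF replicates 1 and 2. In the same order, these tests called 360, 300, 1652, 471 and 581 of all genes, against 1313 in the full test.

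The coding sequences of Lefty1 and Lefty2 are similar, which bears on how well their reads can be told apart. Both are 1104 bases long without the stop codon, and 1014 bases (91.8%) are the same. When the longest transcripts were cut into all stretches of 75 bases, 173 were shared, which is 11.2% of those of Lefty1 and 7.21% of those of Lefty2. HTSeq discards such reads by default, which would understate both levels.

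**Figure D3:**
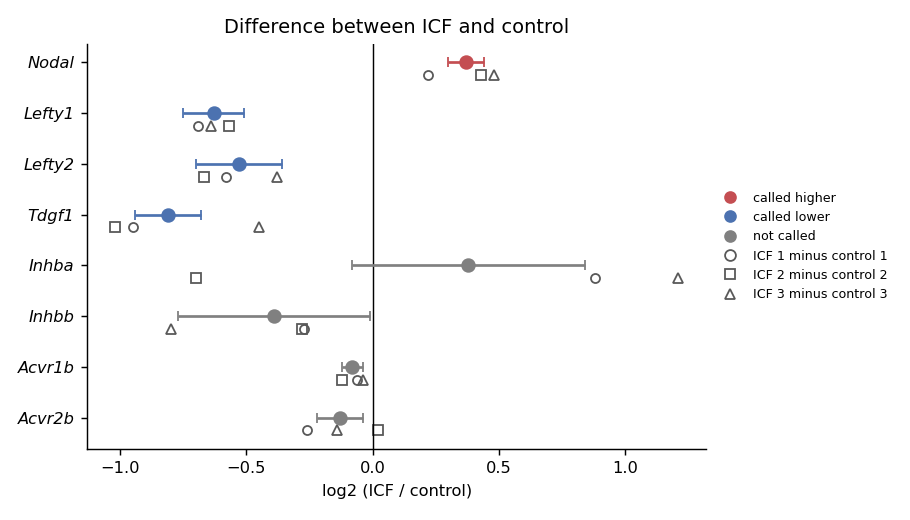
Log2 difference between ICF and control for each gene: filled points give the fold change of the edgeR test with the standard error from the spread between samples (n = 3 per group), and open markers the difference between the ICF and control sample of the same number. All 3 open markers are above 0 for Nodal and below 0 for Lefty1, Lefty2, Tdgf1, Inhbb and Acvr1b, and the point of Tdgf1 is farthest from 0, at -0.81.

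Ratios of counts within a sample do not depend on the scaling between samples, and they were used to set the ligand against its inhibitors and its co-receptor. For each read of Lefty1 and Lefty2 together there were 0.807, 0.817 and 0.703 reads of Nodal in control cultures and 1.46, 1.69 and 1.38 in ICF cultures. The ICF samples were all above the control samples, and the mean ratio went from 0.776 ± 0.0628 to 1.51 ± 0.160 (SD, n = 3), a log2 difference of 0.96 (SE 0.11). For Nodal against Lefty1 alone the log2 difference was 1.01 (SE 0.09), and against Lefty2 alone it was 0.92 (SE 0.21).

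Control cultures held 12.5, 14.1 and 12 reads of Tdgf1 for each read of Nodal, and ICF cultures 5.55, 5.20 and 6.32. This ratio was lower in all ICF samples, with a log2 difference of -1.18 (SE 0.11). Both ratios reached the smallest p of the exact two-sided permutation test, p = 0.1, where 6 ratios were compared. The other 2 of these without overlap were those of Nodal to each Lefty gene, also at p = 0.1 in the exact test, and with adjustment over the 6 ratios these 4 stood at 0.15 (Benjamini-Hochberg, exact permutation tests). The lack of overlap in these 4 ratios follows from that of the single genes, which moved in opposite directions. Their p-values are therefore no further evidence beyond the tests of the genes.

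Lefty1 had 1.13, 0.943 and 0.801 reads for each Lefty2 read in control cultures and 1.05, 1.01 and 0.668 in ICF cultures. Its groups overlapped (log2 difference -0.09, SE 0.25, exact two-sided permutation test, p = 0.7), and replicate 3 had the lowest ratio in both. No difference between the falls of Lefty1 and Lefty2 was detectable at this error.

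**Figure D4:**
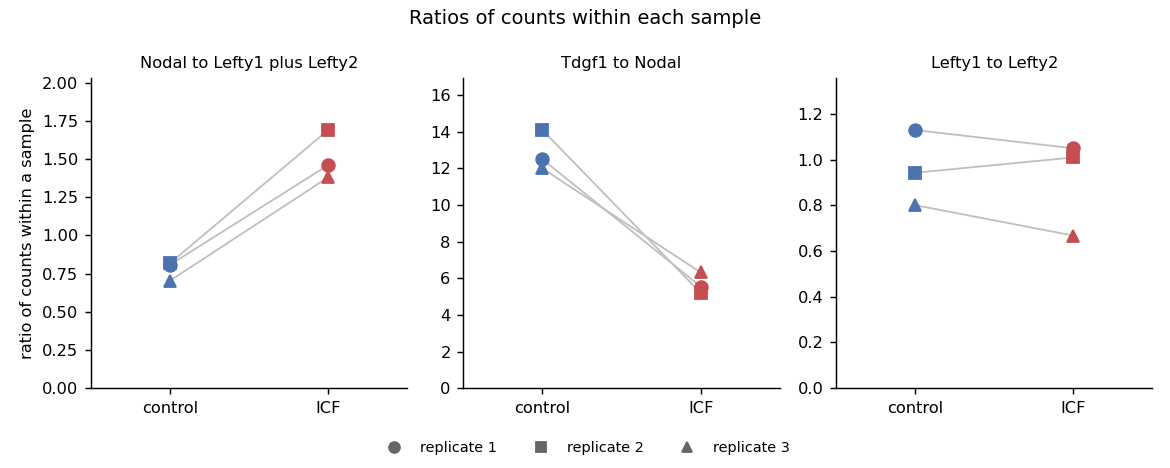
Ratios of counts within each sample, for control and ICF (vertical axes from 0), with grey lines joining samples of the same replicate number. The ratio of Nodal to both Lefty genes is 0.703 to 0.817 in the control and 1.38 to 1.69 with ICF, that of Tdgf1 to Nodal is lower with ICF in all 3 pairs, and that of Lefty1 to Lefty2 overlaps.

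Among 46 other genes of the pathway, grouped by role, 42 were tested, of which 1 was called higher and 2 lower. Their median log2 fold change was 0.01, against 0.00 over all tested genes and -0.26 over the 8 genes. With the replicate block 13 of the 42 were called, 6 higher and 7 lower, in a test that called 29.9% of all genes. The share of calls was thus near that of the whole transcriptome.

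Of 10 other ligands of the family, 8 were tested and 1 was called. Inha, which encodes the inhibin α subunit that turns Activin subunits into Activin antagonists, fell from 1.87 ± 0.421 to 0.755 ± 0.315 CPM (SD, n = 3), which is log2 fold change -1.29 (SE 0.40, adjusted p = 0.048, edgeR). It was counted with only 69, 50 and 48 reads in the control and 36, 27 and 12 with ICF. Gdf3, a Nodal-related ligand of pluripotent cells and the most abundant of this list, was at 96.2 ± 11.3 and 105 ± 11.8 CPM, which was not called (adjusted p = 0.49). Tgfb1, the founding ligand of the family, was at 6.86 ± 0.713 in the control and 9.45 ± 0.672 CPM with ICF (adjusted p = 0.055, 0.0016 with the replicate block and 0.022 in DESeq2). Gdf11, another ligand of Acvr2b, was called higher with the block, at 4.83 ± 0.430 and 6.39 ± 0.0952 CPM (adjusted p = 0.085 without it and 0.017 with it). Gdf1 and Mstn were listed at 0 in all 6 samples. Overlap with other annotated genes was not checked for them, so a count of 0 need not mean absent RNA.

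Of 6 other receptors and co-receptors 5 were tested, and 0 were called by edgeR and by DESeq2, with 1 at an unadjusted p under 0.05 in edgeR. Tgfbr1, a receptor of TGF-β, had a log2 fold change of 0.23 (adjusted p = 0.13, and 0.0081 with the replicate block), and Tgfbr2, its partner, one of -0.25 (0.32, and 0.031 with the block). Acvr2a, the other activin type II receptor, was at 23.6 ± 2.05 and 22.7 ± 2.06 CPM. Acvr1c had 1 read in each of 2 control samples and none elsewhere. The Cripto homologue Cfc1 was low, at 0.416 ± 0.262 and 0.758 ± 0.419 CPM, and was not called (adjusted p = 0.35).

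Of 6 other inhibitors and processing enzymes, all tested, 0 were called by edgeR and by DESeq2, with 0 at an unadjusted p under 0.05 in edgeR. Fst, which encodes follistatin, an Activin trap, was at 60.2 ± 13.4 in the control and 78.5 ± 14.4 CPM with ICF (adjusted p = 0.21, and 4.8e-06 with the replicate block). Pcsk6, a convertase that cleaves the Nodal precursor, was at 44.5 ± 5.62 and 35.3 ± 8.08 CPM (adjusted p = 0.24, and 0.00018 with the block). Furin, another such convertase, was at 66.3 ± 9.33 and 60.8 ± 9.30 CPM and was called with neither. The Nodal antagonists Cer1 and Dand5 were at 2.76 ± 0.772 and 3.82 ± 0.670 CPM in the control and had log2 fold changes of -0.13 and -0.02.

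Of 14 intracellular transducers and repressors, all tested, 1 was called. Skil, which encodes SnoN, a repressor bound to Smads, fell from 167 ± 10.5 to 118 ± 23.8 CPM (SD, n = 3), which is log2 fold change -0.50 (SE 0.17, adjusted p = 0.048, edgeR's quasi-likelihood test). The signal transducers Smad2, Smad3 and Smad4 had log2 fold changes of 0.11, -0.15 and -0.01, and Foxh1 one of 0.05, which were not called with or without the block. Pmepa1, an inhibitor of Smad activation, was at 48.2 ± 4.80 and 56.1 ± 1.30 CPM (adjusted p = 0.13, and 0.0054 with the block).

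Among 14 known target genes of the pathway, which share Skil, Smad7, Pmepa1 and Cer1 with the lists above, 13 were tested, and Lhx1 was called higher and Skil lower. Lhx1, a homeobox gene of the anterior mesendoderm, went from 4.32 ± 1.25 to 8.03 ± 1.35 CPM (SD, n = 3), which is log2 fold change 0.89 (SE 0.27, adjusted p = 0.04, edgeR's quasi-likelihood test). Otx2, an anterior epiblast factor, was at 39.9 ± 1.15 and 28.7 ± 8.27 CPM (adjusted p = 0.11, 1.6e-05 with the replicate block and 0.043 in DESeq2). Smad7 and Foxa2 had log2 fold changes of -0.14 and 0.10 and were not called. In this list, which does not hold Lefty1 and Lefty2, 6 genes had positive and 7 had negative log2 fold changes, and the median was -0.07. The calls of Inha, Skil and Lhx1 did not hold in all tests that left out 1 sample. Without control replicate 3 edgeR called 1 gene of these lists, and without ICF replicate 3 it called 4. It called no gene of them without control replicate 1, control replicate 2, ICF replicate 1 or ICF replicate 2. These tests called only 360, 300, 471 and 581 of all genes, in that order, against 1313 in the full test. Those without control replicate 3 and without ICF replicate 3 called 1652 and 1408.

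**Figure D5:**
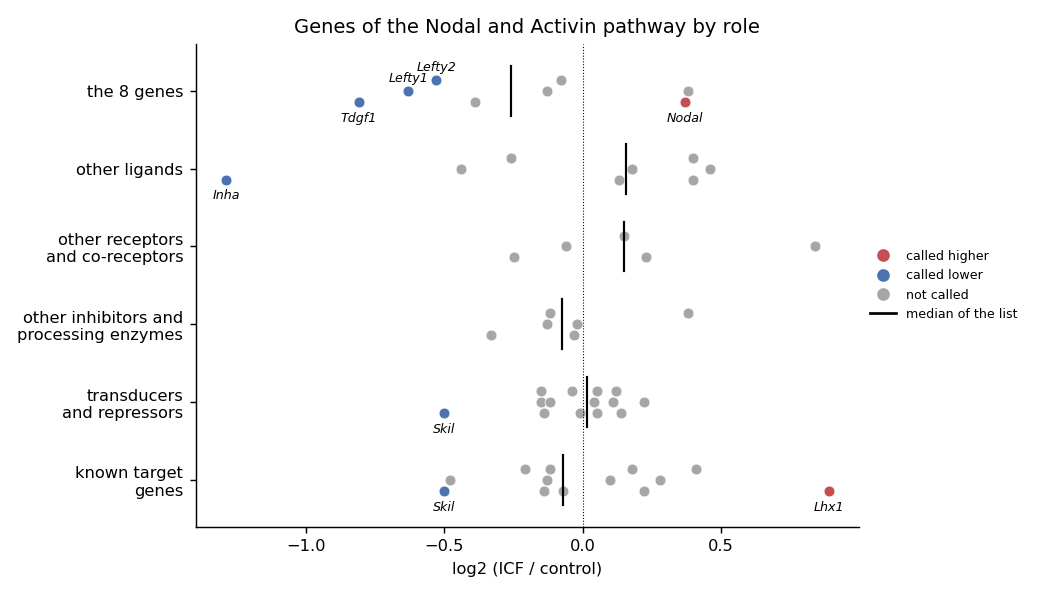
Log2 fold changes of the tested genes of the pathway, by role: each point is 1 gene, coloured by its call in edgeR's quasi-likelihood test, and vertical lines give the median of each list. Named points are the called genes: Nodal and Lhx1 lie above 0, and Tdgf1, Lefty1, Lefty2, Inha and Skil below it, with Skil in 2 lists.

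The genes nearest in profile to the 4 called genes over the 6 samples were listed. With so many genes and only 6 samples, near neighbours can be found for any gene, and no baseline was computed. Likeness was measured as the root mean square difference of log2 CPM, each gene centred on its own mean, among 13172 other tested genes whose mean was 50 counts or more. The gene most like Lefty2 was Skil, with a difference of 0.0306, followed by the histone demethylase gene Kdm7a (0.0505) and the heparanase gene Hpse (0.0641). Those most like Tdgf1 were Islr2 (0.0637), the mitophagy receptor gene Bnip3l (0.0717) and the pyruvate kinase gene Pkm (0.0728). Nearest to Lefty1 were Gm21761 (0.0529), Arhgdig (0.0534) and Hopx (0.0678), and nearest to Nodal were Ccdc134 (0.0286), Lage3 (0.0294) and Rom1 (0.0301). By the same measure Lefty1 and Lefty2 differed from each other by 0.258, and Tdgf1 differed from them by 0.193 and 0.236. Among the genes ordered by likeness to Lefty1, Tdgf1 ranked 652 and Lefty2 1988. In the order for Lefty2, Tdgf1 ranked 888 and Lefty1 1452. In the order for Tdgf1, Lefty1 ranked 199 and Lefty2 372.

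Markers of cell types were checked beside these results. All 12 markers of pluripotent cells were tested, of which edgeR called 0 (3 at an unadjusted p under 0.05) and DESeq2 called 1, Dppa5a, with a summed level of 4212 to 4775 CPM in the control and 4166 to 4562 CPM with ICF. Pou5f1, which encodes Oct4, was at 840 ± 57.2 and 816 ± 70.4 CPM (SD, n = 3), and Nanog, a known Nodal target, at 352 ± 39.3 and 323 ± 20.5 CPM. With the replicate block 5 of the 12 were called, Dnmt3b higher and Klf4, Dppa5a, Utf1 and Fgf4 lower, in the test that called 29.9% of all genes. In the list for mesenchymal cells and fibroblasts, 11 of 12 genes were tested and 2 were called: Col1a1 rose from 15.3 ± 3.31 to 25.6 ± 2.10 CPM and Col3a1 from 9.63 ± 2.16 to 16.0 ± 3.01 CPM (SD, n = 3). With the block 4 were called higher (Twist1 and Col1a2 beside these) and Fn1 lower. Of the 11 genes 9 had positive log2 fold changes, with a median of 0.13. The summed level of that list was 901 to 1119 CPM in the control and 836 to 1023 CPM with ICF, most of it from Fn1, at 774 ± 95.5 and 660 ± 83.3 CPM, and Lum and Postn were below 1 CPM on average in both groups. Of 10 mesendoderm markers 8 were tested and Sox17 was called lower, from 68.7 ± 2.98 to 54.2 ± 5.78 CPM, with summed levels of 390 to 398 and 381 to 413 CPM, whereas T, Mixl1, Gsc and Mesp1 were below 1 CPM on average in both groups. Gata6 of the same list, at 96.1 ± 1.27 and 109 ± 1.93 CPM, was called higher by DESeq2 (adjusted p = 0.034) and with the block (0.0061), but not by edgeR without it (0.072), and the block also called Eomes lower. Of 10 neuroectoderm markers 8 were tested, of which edgeR called 0 (3 at an unadjusted p under 0.05) and DESeq2 called 1, Nes, with summed levels of 124 to 134 and 121 to 131 CPM. The block called Nes and Map2 higher and Tubb3 lower. The part of these cell types in the changes of Nodal, Tdgf1 and the Lefty genes was not tested.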

How the data were processed

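The authors extracted RNA from the 6 cultures, prepared strand-specific mRNA libraries and sequenced single reads of 75 cycles. Per the labels and the study's methods, reads were filtered with Trimmomatic, mapped with HISAT2 and counted with HTSeq, and the deposited values are raw counts per Ensembl gene. The submitters' processing notes name bcl2fastq 2.19, and the builds GRCm38 and hg38; the identifiers are those of mouse genes. HTSeq by default drops reads with more than 1 alignment. The HTSeq totals of unassigned reads were left out.

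From these counts, 50376 of 50686 identifiers were given a symbol (GENCODE M21). TMM normalization, the default filter on low counts and the quasi-likelihood test were run in edgeR 4.0.16 (R 4.3.3), without a block, on all 16729 genes; standard errors and permutation tests used log2 CPM with a prior count of 2. The code was tested on simulated data. The alternatives were DESeq2 1.42.0, other size factors and filters, the replicate block, division of the ICF 3 counts by 4, replicate 3 as a batch or left out, and each sample left out. The replicate numbers come from the donor numbers in the labels; pairs that share a number had correlated deviations from the group means (r = 0.15, 0.2 and 0.38 over genes), but so did control 1 with ICF 2 (0.26) and control 2 with ICF 1 (0.17), so that the data set only replicate 3 apart and the pairing of 1 and 2 rests on the labels. The named genes are the 8 genes, the called genes of the pathway lists and the 3 genes of nearest profile; other list genes appear for their values. Members and lists were chosen with earlier results of these data known. Called genes were counted per list, without a set test.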

Additional observations from a re-analysis of the deposited data

How the results depend on the processing

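Tdgf1, Lefty1, Lefty2 and Nodal kept their direction and their call under all 9 settings that used other tools, filters, scalings, the replicate block or replicate 3 as a batch, or that left out replicate 3 of both groups. Leaving out each of the 6 samples in turn, the log2 fold change was 0.32 to 0.44 for Nodal (called in 3 of 6), -0.70 to -0.53 for Lefty1 (6 of 6), -0.69 to -0.43 for Lefty2 (1 of 6) and -0.91 to -0.75 for Tdgf1 (6 of 6). Inhbb passed the threshold with the replicate block (-0.42, adjusted p = 0.0093, edgeR) and with replicate 3 as a batch (-0.42, 0.0074), but not with DESeq2 and the replicate block (adjusted p = 0.079). The block changed no other call of the 8 genes. Inhba, Acvr1b and Acvr2b were not called under any of the 15 settings. For Inhba, Inhbb, Acvr1b and Acvr2b the tests that left out 1 sample gave 0.10 to 0.94, -0.55 to -0.12, -0.11 to -0.05 and -0.19 to -0.07. Over the same tests 0 or 1 of the 8 genes was called higher and 2 or 3 lower. Of the other pathway genes, 3 were called, and 5 with DESeq2, 5 with the looser filter, 13 with the replicate block, 8 with DESeq2 and the block, 20 with replicate 3 as a batch, 14 without replicate 3 of both groups and 0 to 4 with 1 sample left out. Of all genes, 1313 were called, and 2052 with DESeq2, 5006 with the replicate block, 3119 with DESeq2 and the block, 5699 with replicate 3 as a batch, 5093 without replicate 3 of both groups and 300 to 1652 with 1 sample left out. The cause of these shifts was not tested. The low counts of Inhba and Inha and the steps of 4 in ICF replicate 3 limit the precision for genes of low level.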
